A study of Rattus norvegicus with 6 samples.

Results

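Follistatin and 9 other genes of the activin signalling axis were measured in the renal cortex of male Crl:CD(SD) Sprague-Dawley rats, bought at 5 weeks of age. The genes are Fst, Fstl1, Fstl3, Inhba, Inhbb, Acvr1b, Acvr2a, Acvr2b, Bambi and Smad7. They were taken by name, through the RefSeq transcript of each array probe, and 20 of the 61537 probes on the array belonged to them. The treated group was 3 rats dosed for 4 weeks at 1000 mg/kg/day with dipropylene glycol (DPG), which is used as a solvent, and 3 control rats were given water for the same 4 weeks. Each animal had 1 one-colour Agilent array. The group of genes was put together because Fst had one of the largest differences between these same DPG and control arrays. The differences of its members are therefore given as a description, with no test.

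Activins are secreted dimers of the inhibin beta subunits, encoded by Inhba and Inhbb. They bind the type II receptors Acvr2a and Acvr2b, which recruit the type I receptor Acvr1b, and the receptor complex phosphorylates SMAD transcription factors. Follistatin, the product of Fst, binds activins outside the cell and keeps them from their receptors. Fstl3 encodes a related binder of activins, and Fstl1 a more distant secreted relative. Bambi is a membrane pseudoreceptor without a kinase, and Smad7 an intracellular inhibitor that blocks the type I receptor. Transcription of Smad7 is known to be induced by SMAD signalling. In rat kidney, activin A and follistatin are known for roles in tubular development and in repair after injury.

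The level of each gene was read as the processed signal, the background-subtracted fluorescence of a spot in arbitrary units. Log2 values below are the log2 processed signal minus the log2 75th percentile of the same array. Levels of different probes cannot be set against each other, because each probe has its own hybridisation strength. A probe was measured when the scanner software called it well above background on every array of the DPG group, of the control group or of both, and 40383 probes were. Of the 20 member probes, 19 were measured, and each of these was well above background on all 6 arrays. The number of arrays, 3 per group, limits the precision of every value.

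Between 41524 and 41937 probes were well above background on the DPG arrays, against 42668, 43184 and 39556 on controls 1 to 3, so control 3 had the fewest. The DPG arrays shared 1 slide and 1 scan run and the control arrays another, so slide, scan run and treatment cannot be told apart in any value below. With limma's fit across all 40383 measured probes and Benjamini-Hochberg adjustment, 0 probes (0%) passed an adjusted p of 0.05, where the lowest value was 0.131. That fit passed 5008 probes (12.4%) at an unadjusted p of 0.05. Of the marker genes, all 8 convoluted proximal tubule markers and all 5 podocyte markers were measured, and so were all 8 collecting duct and medulla markers, so these counts do not bear on the cortex label.

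Fst stood high in all 3 DPG rats and low in all 3 control rats, on each of its 3 probes. Probe A_64_P154605 read 1185, 819 and 626 in DPG rats 1 to 3, against 67.0, 84.8 and 146 in controls 1 to 3. Probe A_44_P108588 read 1189, 868 and 677 in the DPG rats, against 57.4, 75.8 and 109 in the controls. Probe A_43_P11465 read 915, 634 and 486 in the DPG rats, against 91.2, 82.0 and 108 in the controls. The groups did not overlap on any of the 3 probes, beside 19.7% of all measured probes without overlap (10.5% higher in DPG). Even the lowest DPG array exceeded the highest control array by 4.29-fold, 6.24-fold and 4.48-fold on the 3 probes in that order. On all 3 probes DPG 1 was the highest of the DPG arrays and DPG 3 the lowest, and control 3 was the highest of the controls.

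**Figure D1:**
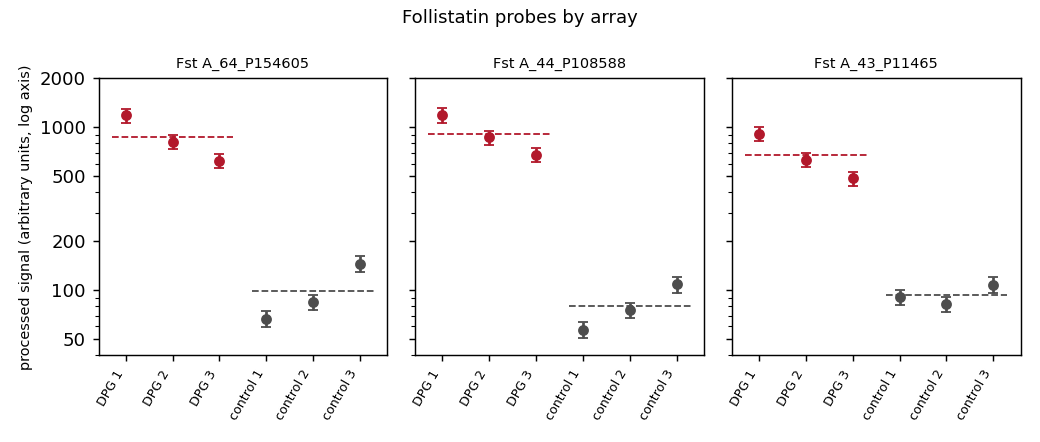
Processed signal of the 3 Fst probes (log axis, arbitrary units) in each of the 3 DPG rats and 3 control rats. Points are arrays, bars are the error that the scanner software assigned to each spot, and dashed lines are group means. All DPG arrays lie between 486 and 1189, above all control arrays, which lie between 57.4 and 146.

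On the log2 scale, A_64_P154605, the Fst probe with the highest mean log2 signal over the 6 arrays, averaged -0.03 ± 0.44 in DPG rats and -3.25 ± 0.64 in controls (SD, n = 3 each). The difference was 3.22 with a limma standard error of 0.37, which is 9.31-fold. Probe A_44_P108588 averaged 0.03 ± 0.38 in DPG rats and -3.52 ± 0.53 in controls, a difference of 3.56 (SE 0.31) or 11.8-fold. Probe A_43_P11465 averaged -0.40 ± 0.43 in DPG rats and -3.26 ± 0.26 in controls, a difference of 2.86 (SE 0.24) or 7.26-fold. All 3 probes carry the same transcript identifier, NM_012561, so they are repeated readings of 1 gene in the same animals and not independent evidence. Of all measured probes, 1 had a larger positive difference than A_44_P108588, and it is not assigned to a gene symbol here. Normexp background correction of the median pixel signal replaces the processed signal altogether and adds an offset of 50 units to every signal. Under it the differences were 2.57, 2.76 and 2.16 on the log2 scale, or 5.93-fold, 6.78-fold and 4.48-fold, for the 3 probes in the order above.

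Within a group, Fst varied between animals. The highest DPG array was 1.89, 1.76 and 1.88 times the lowest on the 3 probes, and the scanner software gave an error between 10.01% and 10.03% of the signal for these spots. Among the controls the highest array was 2.18, 1.89 and 1.32 times the lowest, with scanner errors between 10.73% and 11.5%. When 1 animal at a time was left out, the difference of A_64_P154605 lay between 2.95 (without control 1) and 3.57 (without control 3). The corresponding folds were 7.72 and 11.9.

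None of the other 9 genes had a difference of comparable size on all its probes. Of their 16 measured probes, 15 differed by less than 0.3 in either direction on the log2 scale. The exception was 1 of the 2 Inhba probes, described below. The median over these 16 probes was -0.12, beside a median of 0.00 over all 40383 measured probes. The DPG and control arrays did not overlap on 3 of the 16 probes, 1 of them higher and 2 lower in DPG. Over all measured probes the groups did not overlap on 19.7%, with 10.5% higher and 9.21% lower in DPG. As the members were chosen on this contrast, nothing is read from these counts.

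**Figure D2:**
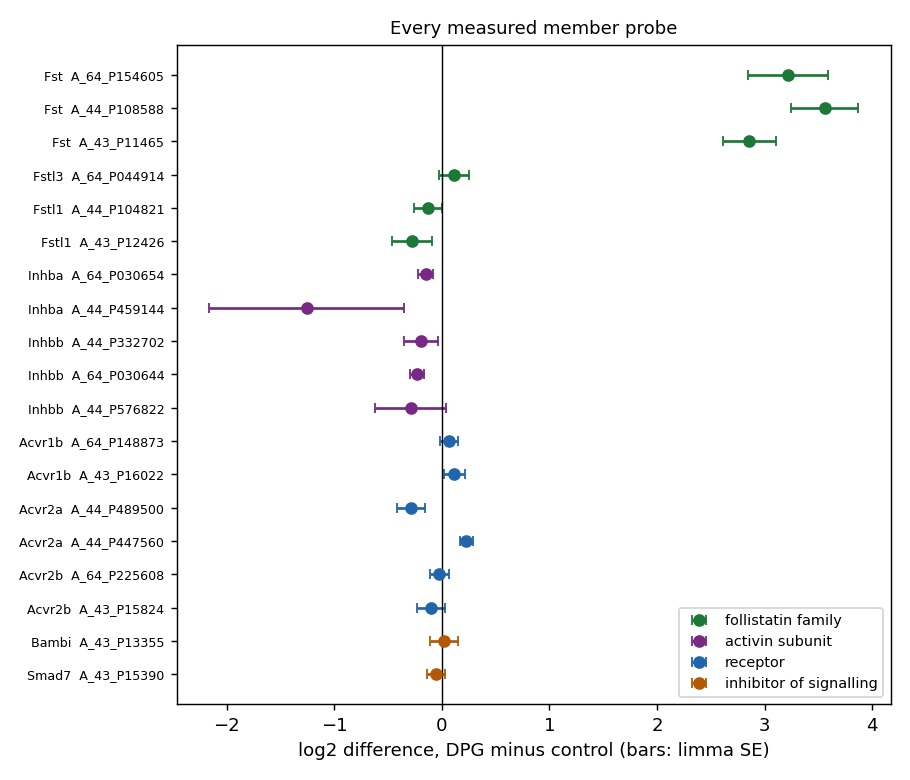
Log2 difference, DPG minus control, of each of the 19 measured probes of the 10 genes, coloured by role, with the limma standard error as bars (n = 3 per group). The 3 Fst probes lie between 2.86 and 3.56, while every other probe except 1 of Inhba lies within 0.3 of 0.

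The 2 relatives of Fst did not share its difference. The Fstl3 probe A_64_P044914 read 74.0, 76.2 and 74.1 in the DPG rats, against 80.7, 82.2 and 54.9 in the controls. The DPG arrays lay inside the range of the controls, of which control 3 was the low one. The log2 difference was 0.11 (SE 0.14), and it was -0.04 without control 3. For Fstl1, probe A_44_P104821 read 182, 146 and 185 in DPG rats, against 194, 220 and 165 in controls. Probe A_43_P12426 of the same gene read 175, 123 and 156 in DPG rats, against 207, 225 and 142 in controls. Both sets of arrays overlapped, with differences of -0.13 (SE 0.13) and -0.28 (SE 0.19).

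The activin subunit gene Inhba gave 2 readings that parted on a single array. Probe A_44_P459144 read 27.0, 23.5 and 23.2 in DPG rats, against 26.9, 31.0 and 265 in controls. Control 3 was 9.85 times the lowest control on this probe, while its scanner error was 27.1 units and the spot carried no outlier flag. On probe A_64_P030654 control 3 was not apart. That probe read 68.7, 63.3 and 66.2 in DPG rats, against 73.6, 79.6 and 73.9 in controls, so the DPG arrays were all lower, by 0.15 on the log2 scale (SE 0.07). The difference of A_44_P459144 was -1.26 (SE 0.90) with all arrays, -0.60 with normexp background correction, -0.15 without control 3 and -1.87 without control 1. With control 3 left out of both probes, A_44_P459144 gave -0.15 (SE 0.11) and A_64_P030654 gave -0.13 (SE 0.08).

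Inhbb, which encodes the other activin beta subunit, had 3 measured probes, and all were lower in DPG on average. Probe A_44_P332702 read 8046, 5144 and 7120 in DPG rats, against 8268, 7644 and 7690 in controls, a difference of -0.19 (SE 0.16). DPG 2 was the low array there. With single animals left out, the difference lay between -0.31 (without DPG 1) and -0.02 (without DPG 2). Probe A_64_P030644 read 336, 331 and 312 in DPG rats, against 407, 419 and 364 in controls. The groups did not overlap on it, and the difference was -0.23 (SE 0.07), or 0.851 times the control level. Probe A_44_P576822 read 301, 291 and 220 in DPG rats, against 209, 453 and 408 in controls, so control 1 was below all DPG arrays and the groups overlapped. Its difference was -0.29 (SE 0.33), and it lay between -0.66 (without control 1) and -0.08 (without control 2) when single animals were left out. The fourth Inhbb probe, A_44_P288117, was not well above background on any array and gave no fold.

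**Figure D3:**
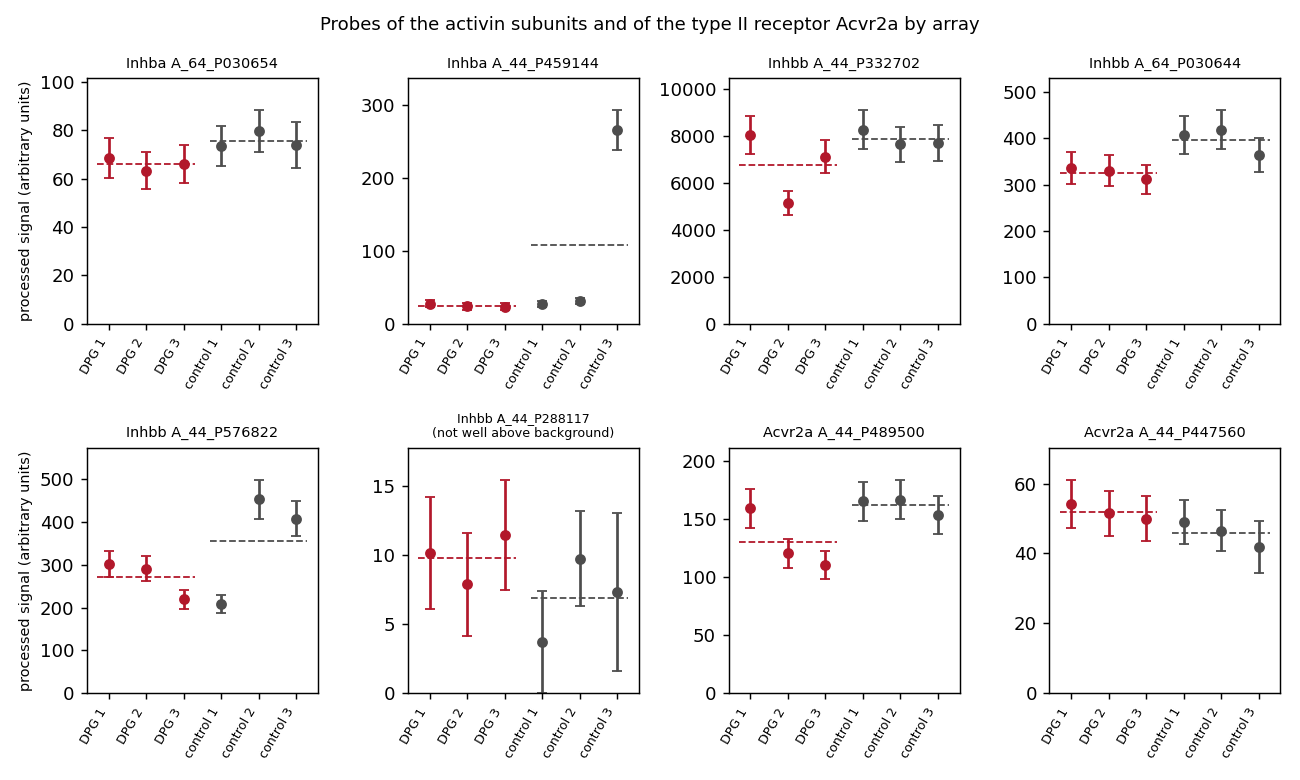
Processed signal (arbitrary units, linear axes from 0) of the 2 Inhba, 4 Inhbb and 2 Acvr2a probes in each DPG and control array, with scanner error bars and dashed group means. Control 3 alone stands at 265 on Inhba probe A_44_P459144, and the 2 Acvr2a probes differ between the groups in opposite directions.

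Among the receptors, the 2 probes of the type II receptor gene Acvr2a went in opposite directions. Probe A_44_P489500 read 159, 120 and 111 in DPG rats, against 165, 167 and 153 in controls, a difference of -0.29 (SE 0.13), with DPG 1 inside the control range. Probe A_44_P447560 read 54.1, 51.5 and 50.03 in DPG rats, against 49.1, 46.6 and 41.8 in controls, a difference of 0.23 (SE 0.06) without overlap. Both carry the identifier NM_031571, so no direction is given for Acvr2a as a gene. With normexp background correction the second difference was 0.09.

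The other type II receptor gene, Acvr2b, read 1647, 1437 and 1420 in DPG rats on its brighter probe A_64_P225608, against 1771, 1490 and 1468 in controls. Its difference was -0.02 (SE 0.09), and the second probe, A_43_P15824, gave -0.10 (SE 0.13). The type I receptor gene Acvr1b read 84.9, 89.3 and 97.5 in DPG rats on probe A_64_P148873, against 90.6, 90.3 and 86.0 in controls. Its 2 probes gave differences of 0.07 (SE 0.08), or -0.03 with normexp correction, and 0.12 (SE 0.10). The groups overlapped on all 4 of these probes.

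The inhibitors of signalling were close to the control level. Bambi, on its only probe, read 7791, 6788 and 8969 in DPG rats, against 7419, 8861 and 7638 in controls, a difference of 0.02 (SE 0.13). Smad7 read 3511, 3374 and 3741 in DPG rats, against 4285, 3796 and 3355 in controls, a difference of -0.05 (SE 0.09). In both genes the arrays of the groups were intermixed, and the sign of the difference changed when single animals were left out. The ranges over the left-out animals were -0.09 to 0.11 for Bambi and -0.11 to 0.01 for Smad7.

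Other genes of the pathway were taken from 5 lists of ligands, receptors, SMADs and their regulators, antagonists, and response genes of the transforming growth factor beta (TGF-beta) superfamily. Of 66 listed genes 54 were measured, each by its brightest measured probe. By limma 0 passed the adjusted threshold, and 10 passed an unadjusted p of 0.05 (18.5%, beside 12.4% of all measured probes), 7 of them higher and 3 lower in DPG. Over all measured probes 6.56% were higher and 5.84% lower at that threshold. The counts moved with the animals. Higher genes numbered 3 without control 2 and 4 without control 1 or DPG 2. Lower genes numbered 0 without control 1 or DPG 1 and 1 without DPG 2. The median over the 54 genes was 0.10, beside 0.00 over all measured probes, with 34 above and 20 below 0.

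**Figure D4:**
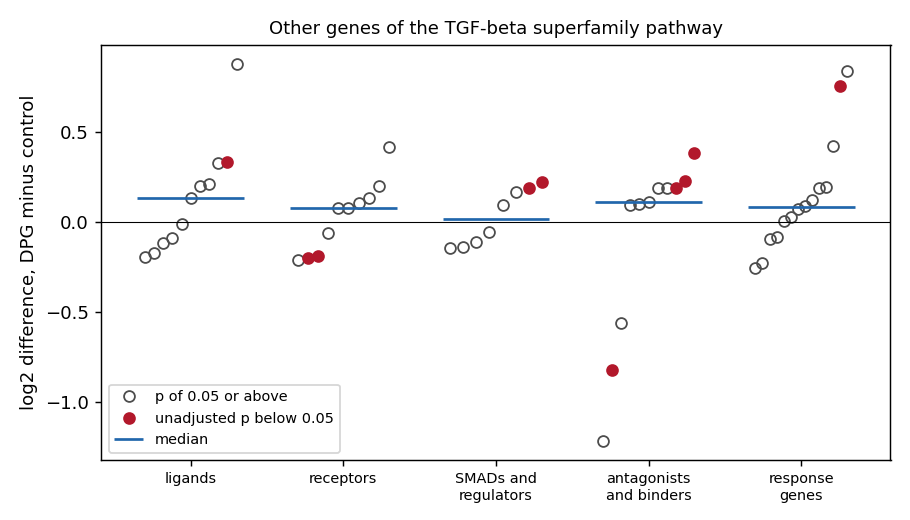
Log2 difference, DPG minus control, of the 54 measured pathway genes in 5 lists; filled points have an unadjusted limma p below 0.05 and horizontal lines are list medians. The medians lie between 0.02 (SMADs and regulators) and 0.14 (ligands), and the highest point is the ligand gene Inha at 0.88.

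Among the response genes, 1 of 14 measured was higher at an unadjusted p of 0.05 by limma and 0 were lower. The shares of all measured probes were 6.56% higher and 5.84% lower. Tgfbi, a secreted matrix protein gene induced by TGF-beta, stood at 2.84, 2.72 and 2.68 in DPG rats, against 1.59, 2.24 and 2.14 in controls. Its difference was 0.75 (SE 0.18, limma adjusted p = 0.276). Id1, a target of bone morphogenetic protein (BMP) signalling, had 0.42 (SE 0.20), and Hamp, the hepcidin gene, had -0.25 (SE 0.12). Itgb6, an integrin subunit gene whose product activates latent TGF-beta, had -0.23 (SE 0.12). The groups overlapped on these 3 genes. The list median was 0.08, and without control 3 or DPG 3 the higher genes numbered 2, while without DPG 2 the lower ones numbered 1.

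Among the antagonists and binders, 3 of 11 measured genes were higher and 1 lower at an unadjusted p of 0.05 by limma. Over all measured probes, 6.56% were higher and 5.84% lower at that threshold. Chrd, which encodes the BMP antagonist chordin, had log2 values of 1.189, 1.098 and 1.071 in DPG rats, against 0.806, 0.705 and 0.687 in controls. Its difference was 0.39 (SE 0.07, limma adjusted p = 0.233), without overlap. Wfikkn1, whose product binds myostatin and related ligands, had 0.23 (SE 0.08), and Sostdc1, a BMP antagonist gene of the distal nephron, had 0.19 (SE 0.08). Fstl4, another follistatin-like gene, was the lower one, at -0.82 (SE 0.30, limma adjusted p = 0.369). Its log2 values were -5.22, -4.89 and -4.71 in DPG rats, against -3.53, -4.15 and -4.66 in controls, and with normexp correction the difference was -0.29. In this list 1 gene was higher without control 2, control 3 or DPG 2, and 0 were lower without control 1, DPG 1 or DPG 2 and 2 without DPG 3.

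Measured genes numbered 11 among the ligands, 10 among the receptors and 8 among the SMADs and regulators. Calls in these lists stand beside 6.56% of all measured probes higher and 5.84% lower at an unadjusted p of 0.05 by limma. Ligand genes gave 1 call at that threshold. Bmp4 had log2 values of 3.26, 3.30 and 3.10 in DPG rats, against 2.85, 2.99 and 2.82 in controls, a difference of 0.33 (SE 0.09, limma adjusted p = 0.289). Inha, whose product pairs with the activin beta subunits to form inhibins, had a difference of 0.88 (SE 0.41, limma adjusted p = 0.446) with overlapping groups. Tgfb3 had 0.33 (SE 0.24), and 0.06 without control 3, while Gdf15, a stress-induced cytokine gene, had -0.17 (SE 0.12). Of the receptors, Tgfbr2 and Bmpr2, the type II receptor genes for TGF-beta and for BMPs, had -0.19 (SE 0.06) and -0.20 (SE 0.08), and both passed the unadjusted threshold. Other probes disagreed, with a difference of 0.03 on the second Bmpr2 probe and up to 0.00 among the other Tgfbr2 probes. Eng and Acvrl1, receptor genes of the endothelium, had -0.21 (SE 0.13) and 0.14 (SE 0.07). Within the SMAD list Smad4, the common partner SMAD, had 0.19 (SE 0.07) and the corepressor gene Tgif1 had 0.23 (SE 0.09). These 2 passed the unadjusted threshold. Smad1 had -0.14 (SE 0.06), and the ubiquitin ligase gene Smurf2 had 0.17 (SE 0.08), with its 3 probes between -0.16 and 0.17. The adjusted p of every gene in the 5 lists was 0.233 or above by limma.

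Markers of the proximal tubule and the thick ascending limb were set beside Fst, and 0 of them passed the adjusted threshold. Over all measured probes, 6.56% were higher and 5.84% lower in DPG at an unadjusted p of 0.05 by limma. In whole tissue, a change in the number of cells of a type and a change in their RNA per cell cannot be told apart. Of 7 measured markers of the straight proximal tubule (8 listed), 4 were higher in DPG at an unadjusted p of 0.05 by limma and 0 lower, with a list median of 0.40. The other 3 measured markers of that segment were below 0 without passing. Their summed signal, in units of each array's 75th percentile and mostly from Slc7a13, lay between 463 and 503 in DPG rats, against 264 to 351 in controls. Slc7a13, an amino acid transporter gene of that segment, had 0.78 (SE 0.16), and Slc6a18 had 0.43 (SE 0.12). All 8 markers of the convoluted proximal tubule were below 0, and 4 of them passed that threshold, with a median of -0.30. Their summed signal was 509 to 575 in DPG rats, against 595 to 646 in controls. Most of it came from Slc34a1, whose groups overlapped (-0.11, SE 0.11). Slc5a12, a lactate transporter gene, had -0.29 (SE 0.08) and Slc4a4, a bicarbonate transporter gene, -0.30 (SE 0.10). The number of lower convoluted markers was 2 without control 1, DPG 1 or DPG 2 and 5 without control 2 or DPG 3, while the number of higher straight markers stayed between 3 and 4 with any animal left out.

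Of the 5 thick ascending limb markers 4 were higher at an unadjusted p of 0.05 by limma, beside 6.56% of all measured probes. The list median was 0.28. Their summed signal, most of it from Umod, was 630 to 681 in DPG rats, against 521 to 563 in controls. Cldn16 had 0.70 (SE 0.06) and Umod 0.25 (SE 0.07). By array, the mean of the straight proximal list relative to the control mean was 0.30, 0.26 and 0.17 in DPG rats, against -0.09, -0.04 and 0.13 in controls. The part of tissue composition in the Fst difference was not tested.

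**Figure D5:**
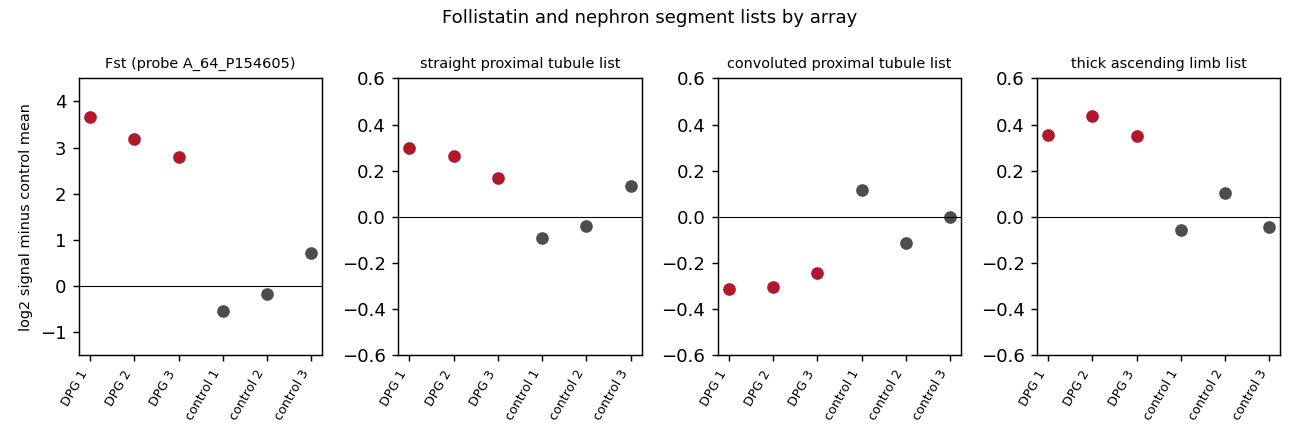
Log2 signal minus the control mean by array, for Fst (left, axis from -1.5 to 4.5) and for the mean of the straight proximal, convoluted proximal and thick ascending limb lists (axes from -0.6 to 0.6). DPG arrays lie above all controls for Fst, the straight proximal list and the thick limb list, and below all controls for the convoluted list. The other marker lists are not drawn, and their means overlapped between the groups. For the collecting duct and medulla list they were -0.22, -0.03 and -0.09 in DPG rats, against 0.10, -0.07 and -0.03 in controls.

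Markers of other cell types gave smaller or mixed values, and 0 of them passed the adjusted threshold. Their counts stand beside 6.56% of all measured probes higher and 5.84% lower at an unadjusted p of 0.05 by limma. Of 8 collecting duct and medulla markers 1 was higher (Aqp4, 0.29, SE 0.09) and 2 lower at an unadjusted p of 0.05 by limma, and Atp6v0d2 was 1 of the lower ones, at -0.23 (SE 0.07). The 4 Aqp4 probes lay between -0.25 and 0.35. The list median was -0.16, with 6 markers below 0 and 2 above. The sums over the 8 markers were 174 to 221 in DPG rats, against 189 to 219 in controls. All 5 podocyte markers were below 0, with a list median of -0.19. Of these, 2 passed the unadjusted threshold, Nphs1 at -0.28 (SE 0.11) and Wt1 at -0.19 (SE 0.07). The podocyte sums, mostly from Podxl, were 24.2 to 30.7 in DPG rats, against 25.6 to 33.4 in controls. Fibroblast and smooth muscle markers had 0 of 8 past that threshold and sums of 19.5 to 26.7 in DPG rats, against 18.3 to 23.9 in controls. Their smallest p values belonged to Tagln (0.38, SE 0.17) and Pdgfra (0.09, SE 0.11, and -0.060 with normexp correction).

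Leukocyte markers had 1 of 6 higher at an unadjusted p of 0.05 by limma, beside 6.56% of all measured probes. It was Cd3e at 0.89 (SE 0.34), with overlapping groups and 2 of 3 control arrays above background. Ptprc had 0.19 (SE 0.16). The leukocyte sums, mostly from Lyz2, were 99.9 to 135 in DPG rats, against 102 to 124 in controls. Of 5 endothelial markers Pecam1 was higher (0.18, SE 0.07) and Cdh5 had -0.14 (SE 0.08), or 0.016 with normexp correction. The endothelial sums, mostly from Kdr, were 26.4 to 29.1 in DPG rats, against 26.1 to 30.9 in controls. Adipocyte markers were measured for 3 of 5 genes, of which 2 were higher and 1 lower. Cidec had 0.56 (SE 0.20), Adipoq -0.45 (SE 0.14) and Fabp4, named after its value was seen, 1.89 (SE 0.70) with overlapping groups, and the list had sums of 2.86 to 4.21 in DPG rats, against 2.61 to 3.27 in controls. Plin1 and Lep were not among those measured. Of 5 adrenal markers 1 was lower, Cyp17a1 at -0.41 (SE 0.07), and 1 higher, Cyp21a1 at 0.52 (SE 0.20), while Cyp11b1, Cyp11b2 and Star were not measured. Sums of the 2 measured were 0.785 to 0.992 in DPG rats, against 0.572 to 0.825 in controls. The part of these cells in the Fst difference was not tested.

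The genes whose pattern over the 6 arrays was most like that of Fst probe A_64_P154605 were sought among 1079 probes with a symbol and an SD of at least 0.5 over the arrays. Pearson correlations are given as a description over 6 arrays that fall into 2 groups. Of these probes 55 had r above 0.9 and 6 had r below -0.9. The 5 highest were Slc22a24, an organic ion transporter gene of the Slc22 family (r = 0.99), Nkain3 (0.99), the membrane transporter gene Slc4a11 (0.98), the mitochondrial arginase gene Arg2 (0.98) and Cfap68 (0.97). Slc22a24 had log2 values of 4.04, 4.05 and 3.66 in DPG rats, against 2.18, 2.48 and 2.98 in controls, a difference of 1.37 (SE 0.22). In Slc22a24, as in Fst, control 3 was the highest control and DPG 3 the lowest DPG array. Slc22a24 was picked by its correlation with Fst, so nothing is read from this order. DPG 1 was the highest DPG array in Fst, while DPG 1 and DPG 2 were alike in Slc22a24. The other 4 had differences of 1.09 (Nkain3), 1.51 (Slc4a11), 0.93 (Arg2) and 0.90 (Cfap68).

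The 5 lowest correlations belonged to Bmerb1 (r = -0.98), Plcxd2 (-0.98), the carboxylesterase gene Ces2e (-0.96), Sez6l2 (-0.95) and the aldo-keto reductase gene Akr1b10 (-0.92). Their differences were -0.90, -1.25, -0.93, -0.86 and -0.90 in that order. Each gene is given by 1 probe, and for Bmerb1, Plcxd2 and Akr1b10 it was not the brightest measured probe of the gene. Other probes of these genes are not given. The Bmerb1 probe was not well above background on every array, and its log2 values in DPG rats were -5.29, -5.04 and -5.04. Of these 10 genes, Nkain3, Bmerb1 and Ces2e had differences of 0.47, -0.27 and -0.50 with normexp background correction. The groups did not overlap for any of the 10, which follows from their likeness to Fst.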

How the data were processed

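The members and lists were chosen with earlier results of these data known. Per the labels' protocols, total RNA was labelled with Cy3 and each animal was hybridised to 1 array. Per the file headers, Agilent Feature Extraction 10.7.1.1 read the spots, and the submitters' processing notes name version 10.7. The deposited processed signal is an intensity after background subtraction and spatial detrending, and its error is the scanner software's, per the file headers. A deposited table of the whole series, used as an alternative, holds a ratio, the processed signal over a constant of each array close to its 75th percentile. Its columns had medians between 0.108 and 0.114, it is linear and uncentred, and it runs in the direction of the scanner values.

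Computed here were log2 processed signals minus each array's 75th percentile. Control spots and 23 probes with an outlier flag were left out. Probes were named through the RefSeq table of GRCr8 (28206 probes, 15645 symbols), and no coordinates are given because the array was designed on another assembly. DPG was set against control in R 4.3.3 by limma 3.58.1 (lmFit and eBayes, two-sided, 4 residual degrees of freedom), Benjamini-Hochberg adjusted over all probes. The fit was tested on simulated data.

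The naming rule took all members with every probe, the 4 genes of each pathway list and the 2 of each marker list with the smallest unadjusted p, and the 5 genes most and least like Fst. Other settings tried were normexp background correction (offset 50, run on the median pixel signal), median scaling, quantile normalization, other filters, the brightest probe of each gene, another variance model, the replicate block, the deposited table and each animal left out. Tests of lists against other genes were not used here. One listed response gene is not reported here and was left out of every count.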

Additional observations from a re-analysis of the deposited data

How the results depend on the processing

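The count of probes past the adjusted threshold was 0 in the alternatives with 6 arrays, and leaving out an animal gave 0 to 3. These were 3 without control 2 (A_64_P009237, A_44_P362016 and A_43_P21640) and 1 without DPG 2 (A_44_P557826), named after their values were seen. The cause was not tested. A_44_P362016 and A_43_P21640 carry the same transcript identifier but had opposite differences, -2.31 and 6.78 without control 2, so no direction is given for that transcript. At an unadjusted p of 0.05 the count, 5008 with all animals, was 3529 to 5297 when 1 was left out. The log2 difference of Fst was 2.57 with normexp background correction, against 3.22. That setting adds an offset of 50 units to every signal, where the controls of this probe read 67.0, 84.8 and 146. The part of the offset in the smaller difference was not tested. The difference of Fst lay between 3.22 and 3.23 in the other alternatives with 6 arrays, and was 2.95 to 3.57 when 1 animal was left out. The signs turned with normexp for Pdgfra (-0.060), Cdh5 (0.016), Acvr1b probe A_64_P148873 (-0.028), Bambi (-0.0023, and below 0 with quantile normalization too) and Smad7 (0.011), where the cause was not tested. Of the 19 member probes, 14 kept their sign in all their alternatives, and 5 of 295 values moved by over 1 SD. The exceptions in sign were 1 probe each of Fstl3, Acvr1b, Acvr2b, Bambi and Smad7. Same-numbered DPG and control arrays did not deviate together (correlations of -0.03, -0.08 and -0.06). Differently numbered arrays had correlations between -0.06 and 0.13. The values gave no sign that the numbers pair the animals, though 3 arrays per group cannot exclude it. With the replicate block 0 probes passed the adjusted threshold, 4084 passed the unadjusted one, and Fst stayed at 3.22. List counts with an animal left out were added after the data were seen. Slide as a block could not be fitted, as no slide held both groups. Dim probes limit the smallest signals, among them A_44_P459144 of Inhba, Fstl4, Hamp, Nog, Cd3e and Bmerb1.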

Other observations

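For Ccn2 and Inha of the pathway lists, picked after their values were seen, DPG 3 lay apart from DPG 1 and DPG 2. How many other listed genes share this was not counted. Ccn2, which encodes a matricellular growth factor of the TGF-beta response, had log2 values of 3.15, 3.39 and 1.64 in DPG rats 1 to 3, against 1.75, 2.22 and 1.69 in controls 1 to 3. Inha had -0.20, -0.06 and -1.11 in the DPG rats, against -2.06, -1.06 and -0.88 in controls. In both genes DPG 1 and DPG 2 lay above every control, while DPG 3 lay within the control range for Inha and just below it for Ccn2. Nog, the gene of the BMP antagonist noggin, also picked after its values were seen, had -6.19, -6.62 and -4.74 in the DPG rats. Its controls had -4.21, -5.20 and -4.51. Nog was well above background on 1 of 3 DPG arrays and was kept through the controls. On DPG 1 and DPG 2 it lay below the lowest value of any probe well above background there (-5.67 and -5.72). No order of the DPG rats is therefore read from Nog. In Fst too DPG 3 was the lowest DPG array, at processed signals of 626, 677 and 486 on its 3 probes, though above all controls. Fst was chosen by its difference between these groups, so nothing is read from setting it beside these genes.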
